A study of Mus musculus with 32 samples.

Results

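RNA sequencing of bone marrow-derived macrophages (BMDMs) was used to ask which genes differed with loss of Trex1 on day 4 of sampling. Attention was given to surface receptors, metabolism and differentiation. The comparison rested on 4 of the 32 libraries of the series, 2 from 4-hydroxytamoxifen (4-OHT)-treated Trex1 FL/FL cells and 2 from 4-OHT-treated Trex1 WT/FL cells. All mice carried R26 CreERT2, a Cre recombinase expressed from the Rosa26 locus that enters the nucleus only after it binds 4-OHT. Bone marrow cells were differentiated for 6 days with L929 supernatant, then either kept untreated or given 4-OHT at 2 µg/ml over 22 h. They were harvested on days 1, 2, 3 and 4. Days were counted from the end of 4-OHT exposure, not from the loss of TREX1 protein. Trex1 FL/FL cells carried 2 floxed alleles. The control cells carried 1 floxed allele, which active Cre can also remove, and 1 wild type allele. All 4 groups of day 4, untreated ones included, had the same recombinase. Each group held 2 libraries for which the labels gave no animal, batch or replicate number, so that p-values measured only the spread between these samples, which may be technical.

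TREX1 is a 3' exonuclease of the cytosol that degrades DNA. Without it, endogenous DNA can activate the sensor cGAS and the adaptor STING, which induce type I interferons (IFN), and these act back on the cells through the receptor IFNAR. Macrophages take up antibody-coated particles, lipoproteins and dying cells through surface receptors, respond to chemokines and microbial products through others, and shift the use of glucose, arginine, lipids and iron when they are activated. Their growth and survival in culture depend on the cytokine M-CSF, which L929 cells secrete.

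The targeted gene was examined first. Trex1 (GRCm39, chromosome 9, 108887001 to 108888802, minus strand) had 0 counts in both libraries of Trex1 FL/FL cells, whereas the controls had 47.8 and 49.0 CPM (counts scaled to library size with TMM factors). Untreated cells had a mean of 95.8 ± 7.83 CPM (SD, n = 2) with the Trex1 FL/FL genotype and of 84.3 ± 8.01 CPM (SD, n = 2) with the Trex1 WT/FL genotype. With 0 counts read as a floor of 3 counts per library, Trex1 was at least 557-fold lower in 4-OHT-treated Trex1 FL/FL cells than in their controls. In the controls Trex1 was itself lower with 4-OHT than without it (log2 fold change −0.80, adjusted p = 1.97e-04). Every 31-base word of the annotated Trex1 transcripts is also found in Atrip, which overlaps it on the same strand, so the division of reads between this pair is uncertain. Atrip had 12.4 and 13.1 CPM in Trex1 FL/FL cells and 12.8 and 15.8 CPM in the controls (adjusted p = 0.223). Shisa5 (chromosome 9, 108867633 to 108887029, plus strand), whose end overlaps that of Trex1 on the opposite strand, had 20.9 and 20.6 CPM against 321 and 300.0 CPM, a log2 fold change of −3.91 ± 0.10 (SE, adjusted p = 1.39e-19). Its level in untreated cells was 499 CPM with the Trex1 FL/FL genotype and 458 CPM with the Trex1 WT/FL genotype.

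Of 15257 genes tested across all 32 libraries, 252 were called higher and 202 lower in Trex1 FL/FL than in Trex1 WT/FL cells on day 4 with 4-OHT, when both an adjusted p below 0.01 and a log2 fold change beyond 1.5 in either direction were required. This was 1.65% and 1.32% of the genes tested. At the adjusted p alone, with no minimum fold, 1502 genes (9.84%) rose and 1782 (11.7%) fell, and these shares are the background for every list below in this comparison. The median log2 fold change of all genes was −0.04. In untreated cells of the same day the genotypes differed at both thresholds in 1 gene that was higher (0.00655%), Fosb, and in 0 genes that were lower (0%) by edgeR, with 2414 genes at an unadjusted p below 0.05. The difference with 4-OHT less that without it passed both thresholds for 188 genes in the higher direction (1.23%) and 155 in the lower one (1.02%), and the adjusted p alone for 786 (5.15%) and 799 (5.24%). Of the genes called with 4-OHT, 171 of 252 higher and 136 of 202 lower ones were also called in this interaction.

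Areas differed in how many genes moved and which way. Of 266 tested genes for surface proteins, 87 rose (32.7%) and 51 fell (19.2%). Among 432 metabolic genes, 55 rose (12.7%) and 106 fell (24.5%). Differentiation genes numbered 169, of which 32 rose (18.9%) and 31 fell (18.3%). Median log2 fold changes stayed small, at 0.12 for surface proteins, −0.08 for metabolism and −0.05 for differentiation. In bulk RNA of this kind, fewer cells of a type and less RNA per cell cannot be told apart.

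**Figure D1:**
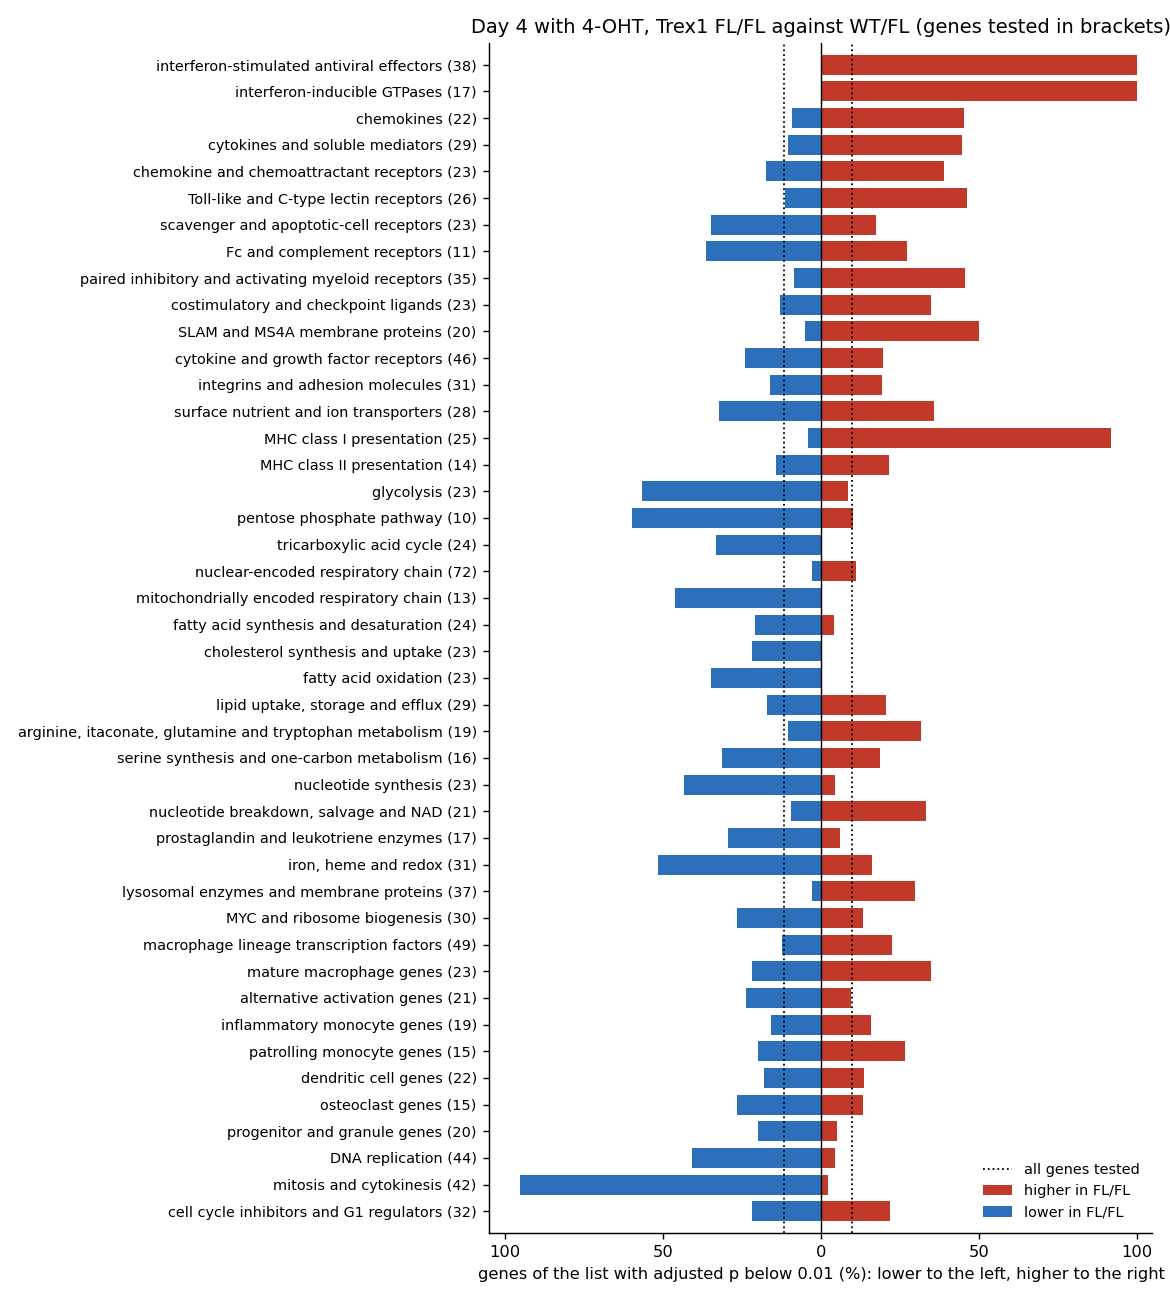
Share of the tested genes of each list (in percent, number tested in brackets) that had an adjusted p below 0.01 and were higher (bars to the right) or lower (bars to the left) in Trex1 FL/FL cells when compared with Trex1 WT/FL cells, both 4-OHT-treated, on day 4. Dotted lines mark the shares of all genes tested, 9.84% higher and 11.7% lower.

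Surface receptor lists held 22 genes called higher (8.27%) and 11 called lower (4.14%), against backgrounds of 1.65% and 1.32%. The plot of surface proteins shows most of those with a mean of at least 1 CPM in a group.

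**Figure D2:**
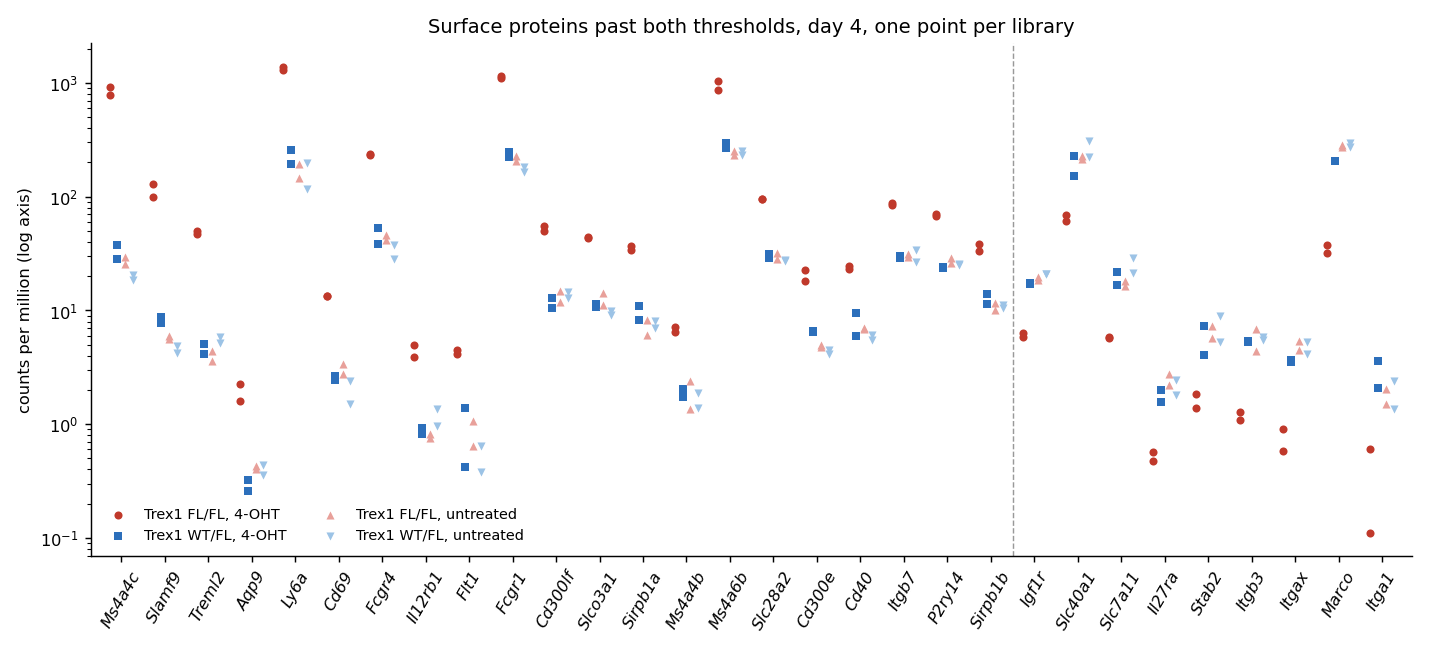
CPM (log axis) of 30 of the genes for surface proteins called on day 4 with a mean of at least 1 CPM in a group, with 1 point per library for the 4 groups of day 4. For 21 genes the 4-OHT-treated Trex1 FL/FL points lie above the 4-OHT-treated Trex1 WT/FL points and for 9 they lie below.

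Fcgr4 (chromosome 1, 170846466 to 170857330), which encodes an activating receptor of intermediate affinity for IgG, had 239 and 234 CPM in Trex1 FL/FL cells and 38.7 and 53.3 CPM in the controls. The log2 fold change was 2.36 ± 0.13 (SE, adjusted p = 2.57e-11). Fcgr1 (chromosome 3, 96190225 to 96201338), the gene of the high-affinity receptor CD64, stood at 1115 and 1141 CPM against 222 and 248 CPM (log2 fold change 2.27 ± 0.11, SE, adjusted p = 1.82e-12). Both genes thus rose several-fold, with the libraries of a group close to each other. Itgax, the integrin chain CD11c of complement receptor 4 and a marker of dendritic cells, was at 0.581 and 0.908 CPM against 3.54 and 3.70 CPM (log2 fold change −2.29 ± 0.26, SE, adjusted p = 1.02e-07). Its partner in the list, Itgam, the CD11b chain of complement receptor 3, fell modestly from 1346 and 1285 CPM to 1006 and 1054 CPM (log2 fold change −0.35, adjusted p = 1.49e-04). Of 11 Fc and complement receptor genes tested, 3 rose, 4 fell and 4 did not pass the test, with a median log2 fold change of 0.06 that was −0.17 without Trex1 WT/FL library 1 and −0.06 without Trex1 FL/FL library 2.

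Paired receptors signal through ITAM adaptors or inhibitory motifs and set the threshold of myeloid activation. Of 35 tested, 16 rose, 3 fell and 16 did not pass, with a median log2 fold change of 0.31. Treml2 (chromosome 17, 48606526 to 48619561), a receptor of the TREM cluster, had 47.4 and 49.5 CPM against 5.10 and 4.17 CPM, a log2 fold change of 3.38 ± 0.235 (SE, adjusted p = 5.71e-10). Its neighbour by family, Treml4, went the other way from a low level, with 0.305 and 0.182 CPM against 1.08 and 0.886 CPM (log2 fold change −2.00, adjusted p = 3.98e-05). Cd300e, an activating receptor of monocytes, had 22.6 and 18.3 CPM against 6.48 and 6.55 CPM (log2 fold change 1.65, or 1.49 without Trex1 FL/FL library 1). Lair1, an inhibitory collagen receptor, rose from 82.5 and 80.3 CPM to 173 and 168 CPM. Siglec1, the sialic acid receptor CD169 that marks IFN-exposed macrophages, had 1739.7 and 1726 CPM against 604 and 681 CPM (log2 fold change 1.43, adjusted p = 9.90e-06).

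The signal-regulatory genes Sirpb1a and Sirpb1b rose together. Sirpb1a had 36.9 and 34.3 CPM against 10.9 and 8.17 CPM (log2 fold change 1.89 ± 0.18, SE, adjusted p = 1.94e-08). Sirpb1b had 38.8 and 33.2 CPM against 14.0 and 11.3 CPM (log2 fold change 1.504 ± 0.14, SE, adjusted p = 2.84e-09), and fell under the fold threshold at 1.36 without Trex1 WT/FL library 2 and 1.39 without Trex1 FL/FL library 1. These copies shared 53.3% and 56.8% of their 31-base transcript words with other genes, so the division of reads between them is uncertain.

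Promoter windows of 300 bases, from 250 before to 50 after each annotated start, were searched on both strands for a GAAA followed after any 2 bases by another GAAA, the core of the IFN-stimulated response element (ISRE) bound by factors of type I IFN signalling. It occurred in 3.79% of the 12812 promoters of protein-coding genes tested, in 56 of 211 promoters of genes called higher (26.5%) and in 9 of 197 of those called lower (4.57%). Among the 22 surface protein genes called higher, 3 had a match (13.6%), namely Fcgr4, Sirpb1a and Sirpb1b, and among the 11 called lower 0 had one. These windows are shown because they belong to receptors described above, with the match in capitals. They were taken from the primary assembly of GRCm39 and read 5' to 3' along the gene. Fcgr4 lies on the plus strand (chr1:170846216-170846515) with its match starting at position −44 from the start site, and Sirpb1a (chr3:15491531-15491830) and Sirpb1b (chr3:15640076-15640375) lie on the minus strand with matches at −134.
Fcgr4: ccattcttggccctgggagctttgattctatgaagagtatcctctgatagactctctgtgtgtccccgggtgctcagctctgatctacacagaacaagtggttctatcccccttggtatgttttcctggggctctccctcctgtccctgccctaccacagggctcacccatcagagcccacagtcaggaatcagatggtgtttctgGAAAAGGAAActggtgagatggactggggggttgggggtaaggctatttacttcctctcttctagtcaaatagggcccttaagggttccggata
Sirpb1a: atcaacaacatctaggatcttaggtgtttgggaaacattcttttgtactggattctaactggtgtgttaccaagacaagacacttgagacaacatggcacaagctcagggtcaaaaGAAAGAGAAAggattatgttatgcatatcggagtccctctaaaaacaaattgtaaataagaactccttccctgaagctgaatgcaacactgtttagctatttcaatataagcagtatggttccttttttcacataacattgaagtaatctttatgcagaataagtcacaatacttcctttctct
Sirpb1b: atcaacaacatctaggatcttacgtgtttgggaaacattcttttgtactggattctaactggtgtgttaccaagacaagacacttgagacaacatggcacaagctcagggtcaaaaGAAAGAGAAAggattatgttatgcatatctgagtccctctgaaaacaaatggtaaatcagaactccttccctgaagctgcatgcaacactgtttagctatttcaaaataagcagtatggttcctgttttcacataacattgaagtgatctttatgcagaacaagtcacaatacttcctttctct
The same letters, in capitals, stood at the same place in the pair of Sirpb1 windows. A match describes the letters of the window and is no evidence of binding in these cells.

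Chemoattractant receptors rose more often than they fell, with 9 of 23 higher, 4 lower and 10 not passing. P2ry14, which binds UDP-glucose, had 70.0 and 68.2 CPM against 23.4 and 24.1 CPM (log2 fold change 1.54 ± 0.12, SE). Ccr2, the receptor of CCL2 on inflammatory monocytes, had 68.8 and 62.1 CPM against 28.3 and 19.6 CPM (log2 fold change 1.44, adjusted p = 0.00134). Its groups did not overlap, but the test was lost without Trex1 WT/FL library 2 (adjusted p = 0.0263) and without Trex1 FL/FL library 1 (0.0127). Receptors that guide cells along sphingosine-1-phosphate and oxysterols fell, S1pr1 from 69.9 and 80.4 CPM to 42.3 and 47.0 CPM and Gpr183 from 21.3 and 19.3 CPM to 12.0 and 12.1 CPM.

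Of 26 Toll-like and C-type lectin receptors, 12 rose and 3 fell and 11 did not pass, with a median log2 fold change of 0.42. The endosomal RNA sensors were among the risers. Tlr3, which binds double-stranded RNA, had 69.7 and 77.2 CPM against 24.5 and 28.9 CPM (log2 fold change 1.46 ± 0.10, SE, adjusted p = 2.86e-12). Tlr7, which binds single-stranded RNA, had 452 and 465 CPM against 223 and 275 CPM (log2 fold change 0.88). Cd180, a homologue of TLR4 that lacks its signalling domain, reached 515 and 514 CPM against 206 and 231 CPM (log2 fold change 1.24 ± 0.08, SE). The flagellin receptor gene Tlr5 was lower, at 8.08 and 6.99 CPM against 15.4 and 15.0 CPM, with a test that was lost without Trex1 FL/FL library 2 (adjusted p = 0.0189). The Dectin-2 gene Clec4n was lower too, at 170.1 and 178 CPM against 285 and 325 CPM, and its test was lost without Trex1 WT/FL library 2 (adjusted p = 0.0137) or Trex1 FL/FL library 1 (0.0145).

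Scavenger and apoptotic-cell receptors moved mainly downwards, with 8 of 23 lower, 4 higher, 11 not passing and a median log2 fold change of −0.44. Marco (chromosome 1, 120402267 to 120432753), a class A scavenger receptor for bacteria and particles, had 37.8 and 31.7 CPM in Trex1 FL/FL cells and 206 CPM in each control library. The log2 fold change was −2.57 ± 0.35 (SE, adjusted p = 2.29e-05), and untreated cells held 280.4 and 285 CPM on average with the FL/FL and the WT/FL genotype. Stab1, which clears modified lipoproteins, had 606 and 628 CPM against 1258 and 1422 CPM. Mrc1, the mannose receptor CD206, had 469.9 and 525 CPM against 1026 and 1089.7 CPM (log2 fold change −1.09, adjusted p = 4.42e-06). Cd36, a receptor of oxidized lipoproteins and fatty acids, had 266 and 248 CPM against 502 and 473 CPM. Stab2 was called at a log2 fold change of −1.81, but lost the call without Trex1 WT/FL library 2 (−1.33, adjusted p = 0.0445), Trex1 FL/FL library 1 (0.0127) or Trex1 FL/FL library 2 (0.0337). Itgb3, a chain of the vitronectin receptor, had 1.27 and 1.09 CPM against 5.37 and 5.27 CPM (log2 fold change −2.17, adjusted p = 1.13e-07). The called gene that rose was Cd300lf, a receptor of phosphatidylserine, with 50.4 and 55.3 CPM against 10.6 and 12.8 CPM (log2 fold change 2.18 ± 0.16, SE, adjusted p = 2.82e-10). Axl, a receptor tyrosine kinase that binds dying cells through GAS6, was at 479 and 436 CPM against 223 and 212 CPM. Its adjusted p of 0.00115 rose above 0.01 without either Trex1 WT/FL library or without Trex1 FL/FL library 1 (0.0105 to 0.0149).

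MS4A proteins span the membrane 4 times and are clustered on chromosome 19, and SLAM receptors bind each other between leukocytes. Of 20 genes of these families tested, 10 rose, 1 fell and 9 did not pass, with a median log2 fold change of 0.50. Ms4a4c (chromosome 19, 11382131 to 11404610) had 918 and 778 CPM against 28.6 and 37.3 CPM, a log2 fold change of 4.69 ± 0.25 (SE, adjusted p = 1.14e-10). It exceeded every other gene of the surface protein lists in the size of its rise. Ms4a6b, in the same cluster, had 1041 and 870.4 CPM against 269 and 299 CPM (log2 fold change 1.75), and Ms4a4b had 7.23 and 6.51 CPM against 1.72 and 2.05 CPM (1.87). Slamf9 (chromosome 1, 172297192 to 172307889), a family member of monocytes and dendritic cells, had 129 and 100.3 CPM against 7.83 and 8.71 CPM, a log2 fold change of 3.79 ± 0.12 (SE, adjusted p = 6.05e-18).

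Costimulatory molecules and checkpoint ligands rose for 8 of 23 genes and fell for 3, and 12 did not pass. Cd69, an early activation marker that retains leukocytes in tissue, had 13.3 and 13.5 CPM against 2.45 and 2.68 CPM (log2 fold change 2.39 ± 0.23, SE, adjusted p = 1.40e-08). Cd40, through which T cells activate macrophages, had 24.6 and 23.0 CPM against 5.99 and 9.53 CPM (log2 fold change 1.62, or 1.32 and no longer called without Trex1 WT/FL library 1). Tnfrsf9, the costimulatory receptor 4-1BB, was near the limit of detection, with 0 and 0.0303 CPM against 0.490 and 0.432 CPM. It was at least 5.30-fold lower when held against 3 counts per library, and the call was lost without Trex1 FL/FL library 1 (adjusted p = 0.0150).

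Cytokine and growth factor receptors showed no common direction, with 9 of 46 higher, 11 lower and 26 not passing. Il12rb1, a chain shared by the receptors of IL-12 and IL-23, had 5.01 and 3.90 CPM against 0.827 and 0.929 CPM (log2 fold change 2.34 ± 0.33, SE, adjusted p = 2.35e-06). Flt1, a VEGF receptor, had 4.48 and 4.18 CPM against 0.422 and 1.38 CPM (log2 fold change 2.30), although its interaction with untreated cells had an adjusted p of 0.0555. Of the 218 named genes, 52 lost their call or test in this interaction, Flt1 among them. Igf1r, the receptor of IGF1, had 5.84 and 6.30 CPM against 17.5 and 17.1 CPM (log2 fold change −1.51, close to the fold threshold). Its ligand gene Igf1 also fell, to 614 and 623 CPM from 1058 and 1043 CPM. Ifnar1, a chain of the type I IFN receptor, fell slightly from 283 and 262 CPM to 208 and 212 CPM (log2 fold change −0.38, adjusted p = 2.62e-05). Csf1r, the M-CSF receptor, had 4196 and 4304 CPM against 5248 and 5044 CPM (log2 fold change −0.28), a small difference whose adjusted p of 4.03e-04 became 0.0101 without Trex1 WT/FL library 1.

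Among 31 integrins and adhesion molecules, 6 rose, 5 fell and 20 did not pass. Ly6a, the IFN-inducible surface antigen Sca-1, had 1391 and 1306 CPM against 256 and 194 CPM (log2 fold change 2.58 ± 0.44, SE, adjusted p = 1.90e-04), with 25.3% of its words shared with other genes. Itgb7, an integrin chain of gut homing, had 88.0 and 83.8 CPM against 30.1 and 28.7 CPM, whereas the collagen-binding chain Itga1 had 0.111 and 0.605 CPM against 3.60 and 2.10 CPM. The log2 fold change of Itga1 was −3.01, and −4.66 without Trex1 FL/FL library 2. 

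Of 28 surface transporters, 10 rose, 9 fell and 9 did not pass. Slco3a1, an organic anion carrier, had 43.4 and 44.3 CPM against 10.7 and 11.3 CPM, and Slc28a2, a purine nucleoside importer, had 95.4 and 94.6 CPM against 29.0 and 31.1 CPM, with 39.8% of its words shared with other genes. Aqp9, a channel for water and glycerol, had 2.24 and 1.60 CPM against 0.321 and 0.259 CPM (log2 fold change 2.71, adjusted p = 5.96e-07). Slc40a1, the iron exporter ferroportin, had 61.7 and 68.8 CPM against 153 and 226 CPM, and its log2 fold change of −1.54 was −1.23 without Trex1 WT/FL library 2 and −1.46 without Trex1 FL/FL library 1. Tfrc, the transferrin receptor that imports iron, had 205 and 197 CPM against 558 and 485 CPM (log2 fold change −1.38 ± 0.09, SE, adjusted p = 2.76e-11). Slc7a11, the cystine importer that feeds glutathione synthesis, had 5.76 and 5.87 CPM against 21.9 and 16.8 CPM (log2 fold change −1.73 ± 0.22, SE, adjusted p = 2.28e-06).

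Presentation on MHC class I rose in 23 of 25 genes and fell in 1, with a median log2 fold change of 1.08. Non-classical heavy chain genes led, with H2-Q6 at 249.5 and 265 CPM against 27.8 and 33.2 CPM and H2-T22 at 758 and 762 CPM against 141 and 166 CPM. Their transcripts shared 47.4% and 62.0% of 31-base words with other genes, which leaves the split between copies uncertain. Of 14 MHC class II genes, 3 rose, 2 fell and 9 did not pass, with a median log2 fold change of −0.36. The class II transactivator Ciita had 2.10 and 2.42 CPM against 4.98 and 4.34 CPM (log2 fold change −1.04, adjusted p = 1.68e-04). Ctss, cathepsin S, which processes the class II invariant chain, reached 5731 and 5606 CPM against 2979.7 and 2894 CPM.

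Metabolic lists held 5 genes called higher (1.16%) and 4 called lower (0.926%), near or below the background of 1.65% and 1.32%. At the adjusted p alone, decreases were more frequent than increases in glycolysis, the pentose phosphate pathway, the tricarboxylic acid cycle, mitochondrially encoded respiration, and iron and redox genes.

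**Figure D3:**
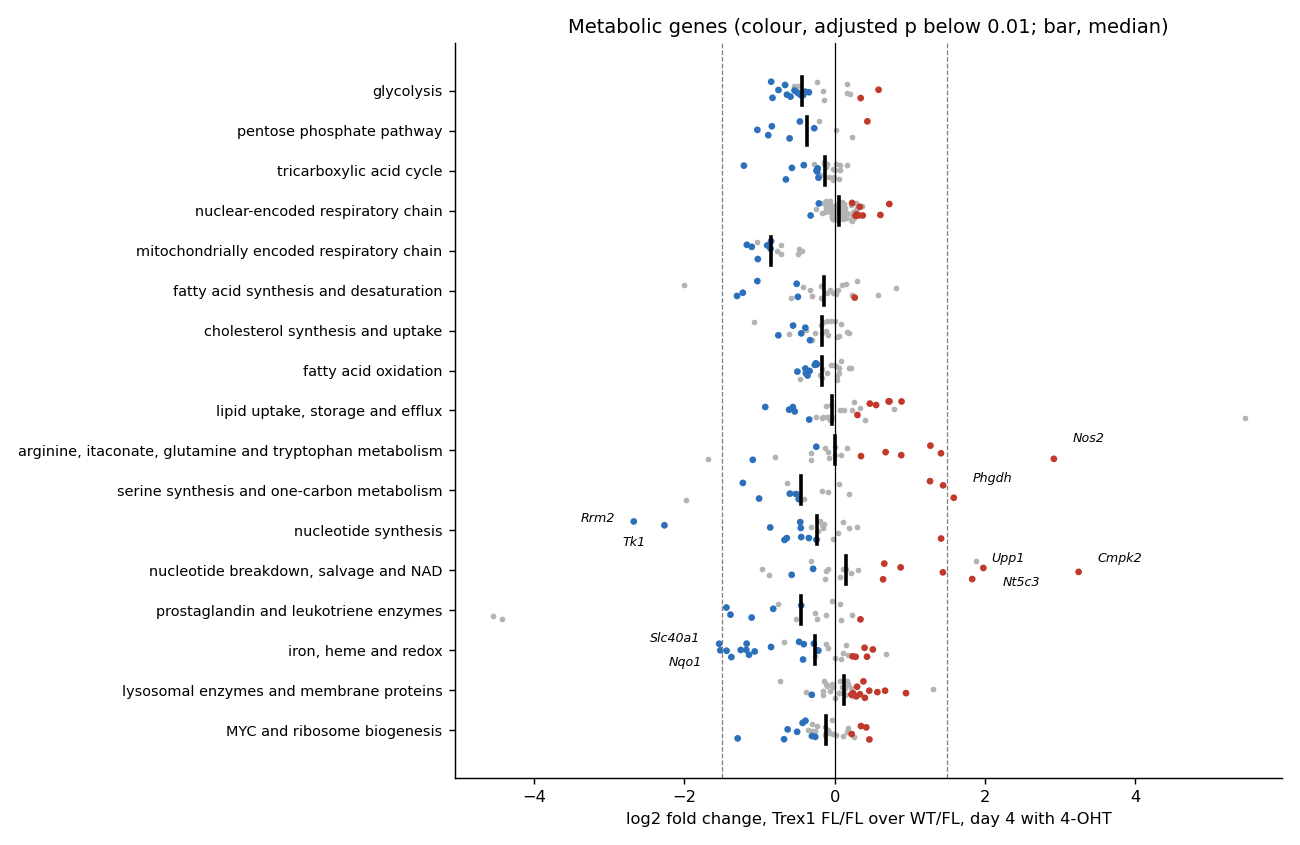
Log2 fold change of every tested gene of the metabolic lists, 4-OHT-treated Trex1 FL/FL over Trex1 WT/FL cells on day 4. Each point is a gene, coloured where the adjusted p is below 0.01, and each bar is the median of a list, at −0.85 for the mitochondrially encoded respiratory chain and −0.44 for glycolysis.

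Glycolysis fell in 13 of 23 genes and rose in 2, with 8 not passing and a median log2 fold change of −0.44. Eno1, which encodes enolase, had 411 and 410.4 CPM against 785 and 672 CPM (log2 fold change −0.83 ± 0.07, SE, adjusted p = 1.37e-09). The aldolase gene Aldoa had 1075 and 1016 CPM against 1629 and 1399 CPM, and Gapdh had 895 and 856 CPM against 1280.4 and 1128 CPM. Pdk1, a kinase that inhibits pyruvate dehydrogenase, had 39.9 and 41.0 CPM against 70.0 and 65.7 CPM (log2 fold change −0.75, adjusted p = 4.93e-08). Pkm, the pyruvate kinase gene, had a log2 fold change of −0.44 that was −0.30 with an adjusted p of 0.0385 without Trex1 WT/FL library 1, and −0.42 with an adjusted p of 0.0128 without Trex1 FL/FL library 2. The 2 that rose were Hk3, a hexokinase of myeloid cells, with 226 and 228 CPM against 149 and 153 CPM, and Pfkp, a phosphofructokinase, with 84.3 and 87.7 CPM against 70.7 and 64.5 CPM. In the pentose phosphate list 6 of 10 genes fell and 1 rose. Pgd, which yields NADPH, had 269 and 275 CPM against 542 and 462 CPM (log2 fold change −0.88 ± 0.09, SE, adjusted p = 9.55e-09).

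In the tricarboxylic acid cycle 8 of 24 genes fell and 16 did not pass. Pcx, which refills the cycle from pyruvate, had 2.91 and 2.18 CPM against 6.53 and 5.23 CPM (log2 fold change −1.21), and the fumarase gene Fh1 had 44.6 and 41.7 CPM against 70.3 and 65.0 CPM (−0.65). Of 72 nuclear genes of the respiratory chain, 8 rose, 2 fell and 62 did not pass, with a median log2 fold change of 0.06. In the interaction with untreated cells 1 gene of the 72 was higher and 6 were lower, with a median of −0.16. Over all genes tested, the shares in the interaction were 5.15% higher and 5.24% lower. In untreated cells the list median differed by 0.24 between genotypes, with 0 genes passing. Among the members of this list, Cycs, cytochrome c, with 24.6% of its words shared with other genes, had 50.4 and 42.5 CPM against 27.6 and 28.5 CPM. Of 13 mitochondrial genes, 6 fell and 7 did not pass, with a median log2 fold change of −0.85. The cytochrome b gene mt-Cytb had 813 and 689.9 CPM against 1591 and 1789 CPM (log2 fold change −1.17 ± 0.18, SE, adjusted p = 5.67e-05), and mt-Nd4, a complex I subunit with 62.8% of its words shared with other genes, had 883 and 729.6 CPM against 1579 and 1886 CPM. Mitochondrial transcripts made up 1.98% and 1.69% of counts in Trex1 FL/FL cells and 2.83% and 3.23% in the controls. Untreated libraries of day 4 had 3.49% and 3.95% with the Trex1 FL/FL genotype and 3.23% and 3.60% with the Trex1 WT/FL genotype. Over all 32 libraries the share ranged from 1.36% to 3.95%. The only libraries below these Trex1 FL/FL libraries were the 4-OHT-treated Trex1 FL/FL ones of day 3 (1.43% and 1.36%). The part of this share in the result was not tested.

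Fatty acid oxidation fell in 8 of 23 genes, cholesterol synthesis and uptake in 5 of 23 and fatty acid synthesis in 5 of 24, with 1 increase in these 3 lists (Acsl5, an acyl-CoA synthetase). The desaturase genes Fads3 (1.88 and 1.48 CPM against 4.09 and 4.24 CPM) and Fads2 (3.68 and 2.27 CPM against 7.55 and 6.40 CPM) had log2 fold changes of −1.30 and −1.22. In lipid handling 6 genes rose, 5 fell and 18 did not pass. Npc2, which moves cholesterol out of lysosomes, reached 2083 and 2089 CPM against 1239 and 1279 CPM (log2 fold change 0.73, adjusted p = 7.95e-09), and the cholesterol exporter gene Abca1 fell from 1445 and 1517 CPM to 918 and 1026 CPM. Nr1h3, the gene of the sterol-sensing receptor LXRα, rose from 46.4 and 47.0 CPM to 80.4 and 73.1 CPM.

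Arginine, itaconate, glutamine and tryptophan metabolism rose in 6 of 19 genes and fell in 2. Acod1, which makes itaconate, had 331 and 313 CPM against 126 and 115 CPM (log2 fold change 1.42, adjusted p = 2.65e-06). Nos2, the inducible nitric oxide synthase gene, was called but low, with 1.72 and 2.09 CPM against 0.203 and 0.303 CPM (log2 fold change 2.92), and lost the call without Trex1 WT/FL library 1 (adjusted p = 0.0175). Gch1, which supplies its cofactor tetrahydrobiopterin, had 47.1 CPM in each Trex1 FL/FL library against 19.6 and 19.4 CPM. Glul, glutamine synthetase, fell from 737 and 723 CPM to 335 and 351 CPM (log2 fold change −1.09 ± 0.06, SE, adjusted p = 3.04e-13). Serine and one-carbon genes split, with 3 of 16 higher and 5 lower. Phgdh, the entry enzyme of serine synthesis, had 12.0 and 9.08 CPM against 3.98 and 3.00 CPM (log2 fold change 1.59, and 1.41 or 1.36 without Trex1 WT/FL library 2 or Trex1 FL/FL library 1, both below the fold threshold), with 40.1% of its words shared with other genes. The mitochondrial folate enzyme gene Mthfd2 rose from 29.1 and 26.0 CPM to 64.2 and 69.0 CPM, while Shmt1, the cytosolic serine hydroxymethyltransferase gene, fell from 2.87 and 2.31 CPM to 1.11 and 1.12 CPM.

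In the nucleotide synthesis list, 10 of 23 genes fell, 1 rose and 12 did not pass. Rrm2, the ribonucleotide reductase subunit of S phase, had 1.91 and 1.57 CPM against 11.5 and 10.9 CPM (log2 fold change −2.67 ± 0.12, SE, adjusted p = 1.55e-15). Tk1, thymidine kinase of S phase, had 2.05 and 2.60 CPM against 11.1 and 11.2 CPM (log2 fold change −2.27 ± 0.23, SE). The gene that rose was Dck, a kinase that salvages deoxycytidine outside S phase as well, with 284 and 300.2 CPM against 101 and 118 CPM (log2 fold change 1.42 ± 0.09, SE, adjusted p = 2.00e-12). Breakdown, salvage and NAD genes rose in 7 of 21 cases and fell in 2. Cmpk2, a mitochondrial nucleotide kinase induced by IFN that lies beside Rsad2 on chromosome 12, had 651 and 620.1 CPM against 60.5 and 73.5 CPM (log2 fold change 3.25 ± 0.185, SE, adjusted p = 2.51e-10). Nt5c3, a pyrimidine nucleotidase, had 121 and 117 CPM against 28.4 and 32.2 CPM. Upp1 was called at low counts and lost the call on leaving out either Trex1 WT/FL library or Trex1 FL/FL library 2 (adjusted p 0.0181, 0.0980 and 0.130).

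Genes of iron, heme and redox balance fell in 16 of 31 cases, rose in 5 and did not pass in 10, with a median log2 fold change of −0.26. In the interaction with untreated cells 0 genes of this list were higher and 12 were lower, against 5.15% and 5.24% of all genes. Of the genes described next, Gclm, Hmox1, Cat and Txnrd1 were chosen after their values were seen. Gclm, the modifier subunit of glutamate-cysteine ligase, had 114 and 104 CPM against 335 and 255 CPM (log2 fold change −1.44 ± 0.12, SE, adjusted p = 9.43e-09). Hmox1, heme oxygenase 1, had 354 and 365 CPM against 911 and 799 CPM (log2 fold change −1.25 ± 0.08, SE, adjusted p = 1.25e-12). Catalase (Cat) had 388 and 386 CPM against 909 and 835 CPM, and Txnrd1, thioredoxin reductase, had 141 and 135 CPM against 308 and 269.7 CPM. Nqo1, a quinone reductase, had 4.87 and 3.09 CPM against 14.1 and 8.82 CPM, and its log2 fold change of −1.52 was −1.14 without Trex1 WT/FL library 1 and −1.24 without Trex1 FL/FL library 2. Gpx1, a glutathione peroxidase, rose, with 416 and 367 CPM against 279.6 and 271 CPM (log2 fold change 0.51, adjusted p = 1.20e-06). Cp, the ferroxidase ceruloplasmin, had 221 and 241 CPM against 157 and 186 CPM, and its adjusted p of 0.00600 was lost without Trex1 WT/FL library 1 (0.107), Trex1 FL/FL library 1 (0.0147) or Trex1 FL/FL library 2 (0.0624). Untreated cells had higher means than the 4-OHT-treated controls for Hmox1, at 1049.9 and 1181 CPM with the FL/FL and WT/FL genotype. The letters TGACNNNGC, the core of the antioxidant response element, occurred in 6 of 31 promoters of the list (19.4%) and in 13.8% of all.

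Prostaglandin and leukotriene enzymes fell in 5 of 17 genes and rose in 1. Ptgs1, cyclooxygenase 1, had 19.1 and 19.2 CPM against 48.2 and 51.8 CPM (log2 fold change −1.39 ± 0.08, SE, adjusted p = 4.15e-13). Hpgd, which inactivates prostaglandins, had 6.04 and 6.05 CPM against 14.7 and 18.2 CPM. Lysosomal genes went the other way, with 11 of 37 higher, 1 lower and a median log2 fold change of 0.12. In the interaction with untreated cells 4 of them were higher and 0 lower, with a median of 0.07. Lamp2, a lysosomal membrane protein gene, had 1293 and 1259.7 CPM against 828 and 895 CPM (log2 fold change 0.57, adjusted p = 9.41e-10), and the α-galactosidase gene Gla had 309 and 312 CPM against 195 CPM in each control library. In the list of MYC and ribosome biogenesis, 8 of 30 genes fell and 4 rose. Myc itself, a driver of growth and biosynthesis, had 7.03 and 6.14 CPM against 17.8 and 14.5 CPM (log2 fold change −1.29 ± 0.13, SE, adjusted p = 1.33e-08).

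The cells carried macrophage RNA in both groups. Macrophage defining markers summed to 31113 and 33033 CPM in Trex1 FL/FL cells and to 32376 and 32993 CPM in the controls. Lyz2 made up 52.8% and 53.8% of these counts. Of the 10 markers, 2 rose, 1 of them called, 3 fell and 5 did not pass, with a median log2 fold change of −0.06. Adgre1, the gene of F4/80, had 4862 and 4583 CPM against 4984 and 4944 CPM (adjusted p = 0.382). Of 23 mature macrophage genes, 8 rose, 5 fell and 10 did not pass, with a median log2 fold change of 0.17, and their mean log2 CPM was 10.14 and 10.13 in Trex1 FL/FL libraries and 9.93 to 10.07 in the other 6 libraries of day 4.

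Of 49 lineage transcription factors, 11 rose, 6 fell and 32 did not pass. Pou3f1 (chromosome 4, 124550600 to 124554448), a POU factor better known from Schwann cells and epidermis, had 20.5 and 18.1 CPM against 0.793 and 0.367 CPM, a log2 fold change of 5.02 ± 0.49 (SE, adjusted p = 4.02e-08). Egr2, a factor of macrophage alternative activation, had 2.21 and 1.79 CPM against 6.03 and 5.53 CPM. Its log2 fold change of −1.53 lay at the fold threshold and was −1.46 without Trex1 WT/FL library 1 and −1.38 without Trex1 FL/FL library 2. Spi1, the gene of the master regulator PU.1, rose slightly from 421 and 416 CPM to 544 CPM in each library, Irf5 from 228 and 220.4 CPM to 320.0 and 304 CPM, and Batf2 from 4.90 and 5.94 CPM to 15.6 and 13.1 CPM. Cebpa, which drives myeloid commitment, fell from 155 and 164 CPM to 103 and 99.0 CPM (log2 fold change −0.66, adjusted p = 1.37e-04).

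Differentiation lists held 7 genes called higher (4.14%) and 13 called lower (7.69%), against 1.65% and 1.32% of all genes. Alternative activation genes fell in 5 of 21 cases and rose in 2, with a median log2 fold change of −0.58. Besides Mrc1, the signalling kinase gene Matk fell from 10.9 and 10.6 CPM to 5.20 and 4.21 CPM, with 38.5% of its words shared with other genes. The called riser of the list was Flt1, described above as a VEGF receptor. Inflammatory monocyte genes rose in 3 of 19 cases and fell in 3. In the interaction with untreated cells, 0 alternative activation genes were higher and 3 lower, and 1 inflammatory monocyte gene was higher and 1 lower. Of the mature macrophage genes, 3 were higher and 3 lower in the interaction. Over all genes tested, the shares in the interaction were 5.15% higher and 5.24% lower. F13a1 (chromosome 13, 37051152 to 37234277), the coagulation factor XIII gene of monocytes and resident macrophages, had 20.1 and 20.0 CPM against 129 and 145 CPM (log2 fold change −2.77 ± 0.27, SE, adjusted p = 3.82e-07). Vcan, which encodes the matrix proteoglycan versican, was called at a log2 fold change of −1.62, and the call was lost without Trex1 WT/FL library 1 (adjusted p = 0.0745), Trex1 FL/FL library 1 (0.0365) or Trex1 FL/FL library 2 (0.0427). Plac8 was called higher at under 1 CPM and was lost without Trex1 WT/FL library 1 (adjusted p = 0.0434) or Trex1 FL/FL library 2 (0.0502). Cd177, a neutrophil surface antigen gene, was called lower at under 1 CPM and was lost without Trex1 WT/FL library 2 (0.0102), Trex1 FL/FL library 1 (0.0112) or Trex1 FL/FL library 2 (0.0393).

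Of 15 patrolling monocyte genes, 4 rose, 3 fell and 8 did not pass, and Spn, the sialophorin CD43 of these cells, had 49.3 and 38.9 CPM against 19.1 and 17.4 CPM (log2 fold change 1.27, adjusted p = 3.54e-07). Dendritic cell genes rose in 3 of 22 cases and fell in 4. The tetherin gene Bst2, also IFN-inducible, had 1115 and 1109 CPM against 342 and 386 CPM, and the corepressor gene Cbfa2t3 had 0.0831 and 0.363 CPM against 2.30 and 1.38 CPM (log2 fold change −3.06, adjusted p = 7.81e-05). Cacnb3, a calcium channel subunit gene, was called lower at about 1 CPM or less and lost the call without either Trex1 WT/FL library (adjusted p = 0.0217 and 0.0308) or without Trex1 FL/FL library 1 (0.150).

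Osteoclasts arise from the same precursors by fusion under RANKL. Of 15 osteoclast genes, 4 fell, 2 rose and 9 did not pass, with a median log2 fold change of −0.46. Mmp9 (chromosome 2, 164780439 to 164797771), a gelatinase that degrades bone matrix, had 7.64 and 7.69 CPM against 55.2 and 49.6 CPM (log2 fold change −2.77 ± 0.25, SE, adjusted p = 8.97e-08). Dcstamp, needed for cell fusion, had 1.02 and 0.242 CPM against 3.70 and 3.93 CPM, and its log2 fold change of −2.55 was −3.96 without Trex1 FL/FL library 1. Itgb3, described above, was the other called decrease. The genes that rose, Clcn7 and Tcirg1, encode parts of the acidifying machinery that lysosomes of other cells also use, and had log2 fold changes of 0.46 and 0.41. Progenitor and granule genes fell in 4 of 20 cases and rose in 1. Myb, the transcription factor of haematopoietic progenitors, had 0 counts in both Trex1 FL/FL libraries against 0.186 and 0.303 CPM, at least 2.81-fold lower when 0 is read as 3 counts per library. Serpina3g, the riser, was called at a log2 fold change of 1.79 and lost the call without Trex1 WT/FL library 1 (1.14, adjusted p = 0.0508) or Trex1 FL/FL library 1 (0.0157), and was at 2.85 without Trex1 WT/FL library 2.

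Of the lists tested, mitosis and cytokinesis had the largest share of decreases. Of its 42 genes, 40 fell, 1 rose and 1 did not pass, with a median log2 fold change of −2.11. Ccna2, cyclin A2, had 1.30 and 1.21 CPM against 14.9 and 15.3 CPM (log2 fold change −3.58 ± 0.13, SE, adjusted p = 2.51e-17). Plk1, the mitotic kinase, had 0.858 and 0.303 CPM against 7.56 and 6.53 CPM (log2 fold change −3.57 ± 0.20, SE, adjusted p = 5.10e-13), and the spindle gene Aspm had 0.471 and 0.454 CPM against 7.90 and 6.83 CPM. Tpx2, a spindle assembly factor, was the gene that rose, from 14.9 and 15.9 CPM to 26.4 and 26.2 CPM. DNA replication genes fell in 18 of 44 cases and rose in 2, with a median log2 fold change of −0.31.

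Among cell cycle inhibitors and G1 regulators 7 of 32 rose, 7 fell and 18 did not pass. The D-type cyclin gene Ccnd2 had 21.3 and 23.1 CPM against 2.09 and 1.47 CPM (log2 fold change 3.62 ± 0.19, SE, adjusted p = 1.42e-13). Cdkn1a, the CDK inhibitor p21, had 489 and 468 CPM against 235 and 227 CPM, and E2f7, a repressor of E2F targets, had 0.221 and 0.393 CPM against 2.52 and 1.49 CPM.

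The mitotic difference was tested against that of day 3. In the time course of list means, the mean log2 CPM of mitotic genes lay between 2.52 and 3.01 in all 8 libraries of day 3, at 1.46 and 1.36 in 4-OHT-treated Trex1 FL/FL libraries of day 4 and between 3.42 and 3.74 in the other 6 libraries of day 4. Between days, the genotype difference of 37 of the 42 genes was lower on day 4 than on day 3 at an adjusted p below 0.01. Over all genes, this change from day 3 to day 4 passed both thresholds for 32 genes in the higher direction (0.210%) and 107 in the lower one (0.701%), and the adjusted p alone for 255 (1.67%) and 310 (2.03%).

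**Figure D4:**
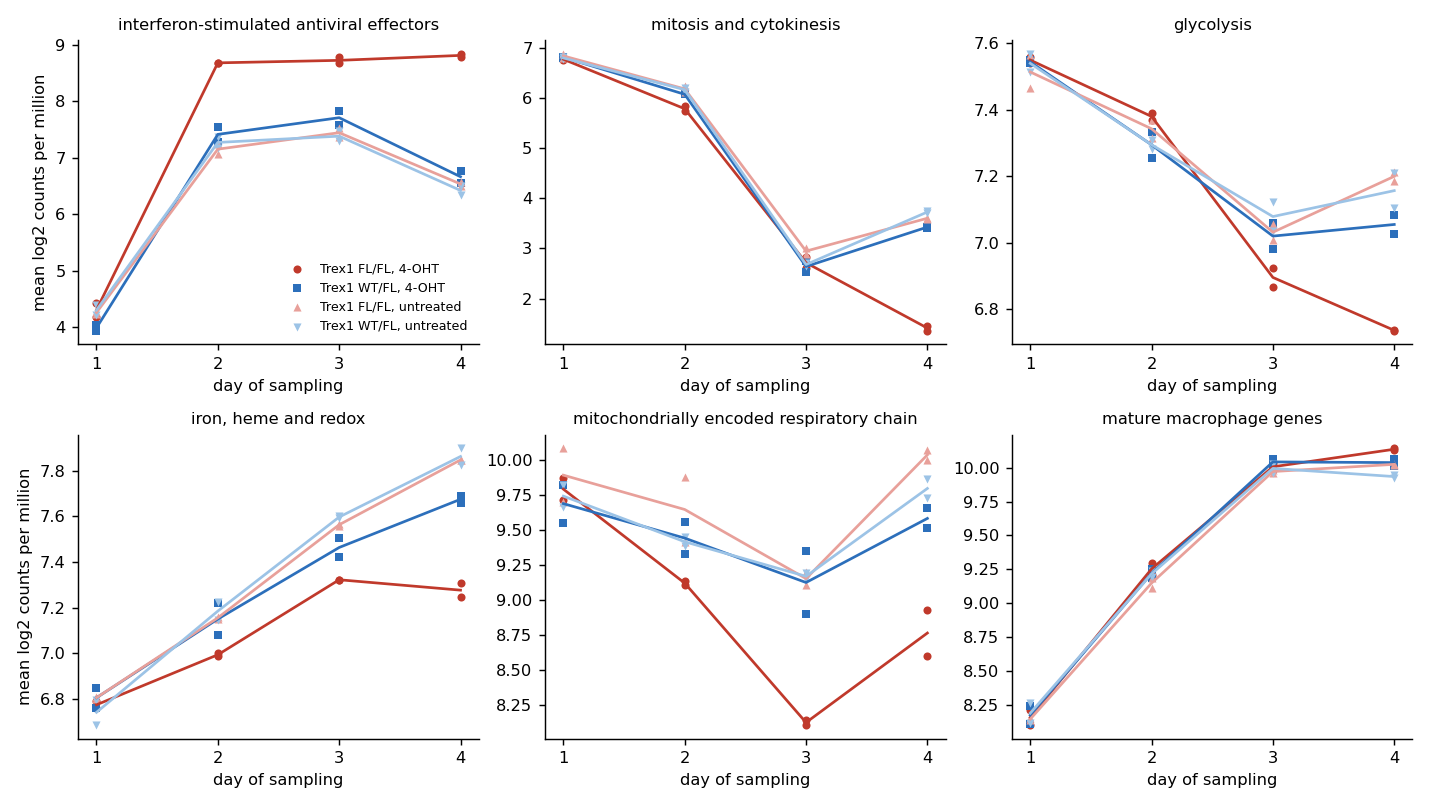
Mean log2 CPM of the tested genes of 6 lists by day of sampling (1 to 4), with 1 point per library and a line through the mean of each group of 2. On day 4 the 4-OHT-treated Trex1 FL/FL points of the mitosis list lie at 1.46 and 1.36 and those of the other groups between 3.42 and 3.74.

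Many mitotic promoters carry a CHR element (TTTGAA) near the start site, bound by the DREAM and B-MYB complexes, and CCAAT boxes bound by NF-Y. On both strands and regardless of overlap between motifs, TTTGAA occurred in 22 of 42 windows of the mitosis list (52.4%) and in 13.8% of all, and CCAAT in 29 of 42 (69.0%) and in 39.8% of all. The window of Plk1 is shown as an example (chr7:121758396-121758695, plus strand, primary assembly of GRCm39), with TTTGAA in capitals, whose first base lies 43 bases from the start site.
Plk1: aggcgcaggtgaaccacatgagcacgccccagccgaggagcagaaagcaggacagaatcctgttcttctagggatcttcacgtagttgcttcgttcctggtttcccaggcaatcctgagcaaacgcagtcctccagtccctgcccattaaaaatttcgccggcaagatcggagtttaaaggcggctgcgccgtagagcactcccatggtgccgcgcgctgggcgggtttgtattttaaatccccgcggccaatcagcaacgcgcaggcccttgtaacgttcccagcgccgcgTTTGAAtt

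All 38 tested antiviral effectors rose, 25 of them past both thresholds, with a median log2 fold change of 2.04, and all 17 IFN-inducible GTPases rose (median 2.13). Ifit1bl1 had 289 and 215 CPM against 3.60 and 5.01 CPM (log2 fold change 5.89 ± 0.27, SE), and the antiviral radical SAM enzyme gene Rsad2 had 1129 and 1189.6 CPM against 86.8 and 129.8 CPM. The chemokine gene Ccl5 had 119 and 110.5 CPM against 14.4 and 21.6 CPM (log2 fold change 2.67, adjusted p = 5.43e-07). Ccl12, a ligand of CCR2, had 17.4 and 18.9 CPM against 2.28 and 3.44 CPM, and Tnfsf10, the death ligand TRAIL, had 27.2 and 26.6 CPM against 3.88 and 4.91 CPM. The platelet chemokine genes fell, Pf4 from 143 and 150.2 CPM to 45.8 and 41.6 CPM (log2 fold change −1.75) and Ppbp from 1.72 and 1.34 CPM to 0.111 and 0.182 CPM. Ifnb1, the gene of IFNβ, had 0.332 and 0.424 CPM against 0 in both controls, at least 6.55-fold higher with 0 read as 3 counts per library. Its adjusted p of 0.00620 rose to between 0.0156 and 0.0583 on leaving out any 1 of the 4 libraries.

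Markers of other cell types were summed in each library. T and NK cell markers summed to 0.194 to 0.484 CPM in Trex1 FL/FL cells and 0.108 to 0.186 CPM in controls, and 9 and 12 of the 14 markers were at 0, with Cd3e, Cd8a and Trac at 0 in both groups. B and plasma cell markers summed to 88.9 to 102 CPM and 96.3 to 110.3 CPM, of which Ighm made up 95.9% and 95.8%, while 7 and 5 of the 10 markers were at 0, with Cd79a and Pax5 at 0 in both groups. Neutrophil markers summed to 229 to 245 CPM and 179 to 182 CPM, with Csf3r at 95.5% and 88.8%. Csf3r rose at a log2 fold change of 0.49, which weakened to 0.42 without Trex1 WT/FL library 1. Of the 9 neutrophil markers tested, 1 rose and 8 did not pass, with a median log2 fold change of −0.87. Mast cell, basophil and eosinophil markers summed to 2.27 to 3.05 CPM and 0.584 to 0.895 CPM, mostly Hdc. Fibroblast markers stood at 1.60 to 1.83 CPM and 2.46 to 3.13 CPM, erythroid and megakaryocyte markers at 0.471 to 0.636 CPM and 1.53 to 2.13 CPM with Ppbp as the main gene of the controls, and dendritic cell defining markers at 0.858 to 1.42 CPM and 1.47 to 1.65 CPM. The part of these markers in the results for granule, monocyte and dendritic cell genes and for Ppbp was not tested.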

How the data were processed

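RNA of mouse BMDMs was sequenced in 32 libraries, 2 for each of 16 groups of genotype, treatment and day, of which the comparison uses 4. The authors used JE for demultiplexing, FastQC for read quality, Salmon with GRCm39 for transcript abundance and tximport for gene totals. The deposited table gives estimated counts for each gene, not normalized and stored as whole numbers, so no rounding was needed. The annotation release and any strand setting are not given in the sources used here. Totals per library ranged from 35120505 to 63760884, with 40395515 and 36698887 for the Trex1 FL/FL cells compared and 61462516 and 48489388 for their controls. Libraries of a group differed by more than sampling noise (chi-square per degree of freedom 9.02 to 47.4).

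Of 54281 identifiers, 51048 matched GENCODE vM39, and the other 3233 held 0.320% of counts. Counts were fitted with edgeR 4.0.16 in R 4.3.3 (quasi-likelihood, robust, TMM factors, minimum count 10) and 1 mean per group over 16 groups, leaving 16 residual degrees of freedom and a biological coefficient of variation of 0.0912. Every adjusted p is Benjamini-Hochberg adjusted over the 15257 genes tested. Fold changes used a prior count of 0.125, and list means of log2 CPM a prior count of 2. Lower bounds used a floor of 3 counts per library and, like shares, cover counting error only. On simulated data for this contrast with 15257 genes, a log2 change of 2.5 was put into 200 genes, of which 182 were recovered, and 0 others were called. Shared sequence is the share of a gene's 31-base transcript words that occur in other genes.

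The comparison and the gene lists were chosen with earlier results of these data known. Genes were named by rule: Trex1, then the protein-coding genes with the 12 largest called increases and the 12 largest called decreases without overlap between groups and with a mean of at least 2 CPM in a group, and for each list up to 4 called genes per direction or, where there was none, up to 2 with an adjusted p below 0.01. Outside this rule and after their values were seen, these were named: Fosb, Atrip, Itgam, Lair1, Siglec1, Ccr2, Tlr7, Stab1, Axl, Ifnar1, Csf1r, Tfrc, Aldoa, Gapdh, Pdk1, Pkm, Nr1h3, Acod1, Gch1, Mthfd2, Hmox1, Gclm, Txnrd1, Cat, Lamp2, Adgre1, Spi1, Irf5, Batf2, Cebpa, Spn, Cdkn1a, Csf3r and Hdc. Some items are not reported here. Alternatives were other factors, DESeq2 1.42.0, other filters, thresholds, controls and sets of libraries, and leaving out each library.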

Additional observations from a re-analysis of the deposited data

Results flagged for a closer look

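The genotype difference with 4-OHT was itself tested between day 4 and day 3 (edgeR quasi-likelihood test of the change, adjusted p below 0.01 and an absolute log2 change above 1.5). Of the genes named here, 31 passed. Values are the log2 fold change of Trex1 FL/FL over Trex1 WT/FL cells on day 4 less that on day 3, with 2 libraries in each of the 4 groups.

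Among surface proteins, the difference moved upwards for Ms4a4c (2.63), Ms4a4b (1.69) and Treml2 (1.59) and downwards for Treml4 (−2.24) and the cystine importer gene Slc7a11 (−2.18). Metabolic genes were represented by Cmpk2 (1.62), Rrm2 (−2.53) and Fads2 (−1.68). The mitotic genes Aspm (−4.38), Nusap1 (−4.06), Ccnb2 (−3.84), Plk1 (−3.69), Hmmr (−3.63), Kif14 (−3.52), Ccna2 (−3.35), Cenpf (−3.29) and Pbk (−2.84) all moved downwards, as did the replication checkpoint gene Clspn (−1.99) and the cell cycle repressor gene E2f7 (−2.46), while the cyclin gene Ccnd2 moved upwards (1.92). The other genes that moved upwards are known to be IFN-inducible. They were Ifit1bl1 (3.25), Apol9a (2.68), Cxcl10 (2.31), Ifi205 (2.18), Gbp4 (2.08), Tnfsf10 (1.88), Tgtp2 (1.84), Ifit2 (1.79), Iigp1 (1.74), Isg20 (1.72) and Rsad2 (1.64). Of the transcript words of Tgtp2, Ifi205 and Apol9a, 90.5%, 22.6% and 20.2% also occur in other genes. The mean log2 CPM of the antiviral effector list in 4-OHT-treated Trex1 FL/FL cells was 8.78 and 8.68 on day 3. On day 4 it was 8.84 and 8.80. In the 4-OHT-treated controls it was 7.59 and 7.84 on day 3 and 6.56 and 6.77 on day 4. For this list the controls thus fell by more than the Trex1 FL/FL cells rose.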

How the results depend on the processing

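Counts of genes called higher and lower stayed within 1.5 times the main 252 and 202 under RLE or upper-quartile factors, DESeq2 (268 and 202, sharing 436 of the 454 calls), stricter or no filtering of low counts, fitting 8 or 4 libraries, comparison with untreated Trex1 FL/FL cells and the interaction with untreated cells. With the fold tested in the model they were 88 and 52, and at an adjusted p of 0.05 and a log2 fold of 1 they were 484 and 486. At the adjusted p alone, the interaction gave 786 higher and 799 lower genes against 1502 and 1782. Called differentiation genes numbered 11 in the fit of 4 libraries, where fewer samples estimate the spread, and 13 in the interaction, against 20. Called metabolic genes numbered 18 against untreated Trex1 FL/FL cells, against 9, and the cause was not tested. Without each library in turn, 198 to 242 genes were called higher, 160 to 199 lower, 1034 to 1314 rose, 1109 to 1376 fell, and 27 to 34 surface protein, 7 to 9 metabolic and 15 to 19 differentiation genes were called. The number that fell was 1109 without Trex1 FL/FL library 1. Of 44 list medians, 12 to 19 moved by more than the spread between replicates on leaving out a library, 21 in the interaction and 24 against untreated Trex1 FL/FL cells. Of 218 named genes, 52 lost their call or test in the interaction and 22 to 33 without a library, and none changed sign among those that passed the test. No paired analysis was possible because the labels give no replicate numbers or animals. Genes at a few counts (Ifnb1, Myb, Tnfrsf9, Upp1, Cd177) are limited by depth.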
